A study of Rattus norvegicus with 10 samples.

Results

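Serinc5, Rapgef2 and Acvr1b are the 3 genes described here, of 23487 in the deposited count table. They were taken by their rat gene symbols, because the study marks them as targets of miR-145-5p. The study picked them among genes whose mRNA was lower in oligodendrocytes (OLs) given a miR-145 mimic, so the comparison of those OLs with their control describes the choice and is not independent evidence for it. The study also measured chosen genes by qRT-PCR, the marked targets among them, and reported lower levels. Those measurements were not analysed here. An inhibitor of miR-145 in oligodendrocyte progenitor cells (OPCs) was measured in other libraries, and the question it addresses is whether the same mRNAs move the opposite way.

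RNA came from primary cells of the cerebral cortex of Sprague-Dawley rat pups aged P1 to P3. OPCs were enriched by shaking mixed glial cultures and by differential adhesion, and some were differentiated into OLs. Each of 5 groups held 2 libraries. OLs had received the miR-145-5p mimic (miR-145), the miR-145-5p and miR-219 mimics (miR-145+miR-219) or a scrambled mimic (miR-ctl), and RNA was taken 5 days after transfection. OPCs had received the miR-145-5p inhibitor (anti-miR-145) or a scrambled inhibitor (anti-miR-ctl), and RNA was taken 24 h after transfection. Every oligonucleotide was used at 30 nM. In the labels of both miR-145 libraries the treatment entry names miR-219 as well, whereas titles and descriptions give only miR-145, which was followed here. The methods paragraph on sequencing names lentiviral transduction, whereas the results and the labels name mimics. No group was left without an oligonucleotide, so each effect is relative to cells given a scrambled one. The study's reporting summary calls every N a biological replicate and, for primary cultures, defines it by the individual mouse, whereas these libraries are from rats and their labels do not name the cultures. The p-values measure the spread between these libraries.

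A microRNA guides an Argonaute protein to mRNAs, mostly through pairing between its seed and the 3′ untranslated region, and lowers the stability or the translation of those mRNAs. A mimic supplies more of the guide strand and an inhibitor binds it, so mRNA measurements after either treatment show only the part of the regulation that acts on mRNA level. miR-145-5p is best known from smooth muscle, and in the OL lineage the study examines it as a brake on differentiation. Serinc5 encodes a membrane protein of many passes, named as a serine incorporator and known in human cells for restricting retroviral infectivity; its rat gene is also called Tpo1. Rapgef2 encodes an exchange factor that loads the small GTPases Rap1 and Rap2 with GTP, which act on adhesion and cell shape. Acvr1b encodes a type I receptor kinase for activins, which phosphorylates Smad2 and Smad3 when a type II receptor has bound ligand.

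The microRNA the study varied was miR-145-5p, and some OLs received a miR-219 mimic with it. The sequences below are miR-145-5p, miR-145-3p from the same gene, and the rat microRNAs named miR-219, 1 of which may have been given. They are printed 5′ to 3′ from RefSeq (build GRCr8), with the seed, bases 2 to 8, in capitals.
rno-miR-145-5p: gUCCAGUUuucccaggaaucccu
rno-miR-145-3p: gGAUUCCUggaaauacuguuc
rno-miR-219a-5p: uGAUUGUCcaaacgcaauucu
rno-miR-219a-1-3p: aGAGUUGCgucuggacgucccg
rno-miR-219a-2-3p: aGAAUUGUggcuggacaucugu
rno-miR-219b: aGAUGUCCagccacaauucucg
The mature miR-145-5p has 23 bases and lies on the minus strand at chr18:57370033-57370055, within Mir145. A full match to its seed in an mRNA would read AACTGGA. Of 693 mature rat microRNAs in the table, 1 carried the seed UCCAGUU, which was miR-145-5p itself. None of the miR-219 sequences shared it, and the labels do not say which miR-219 arm was used. The transcripts of the 3 genes were not analysed here, so no site is shown, and neither was the amount of mature miR-145-5p.

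Between 33505668 and 42684176 counts were assigned to genes per library. Levels are CPM (counts scaled to a common library size) after TMM scaling over the 10 libraries, and since they are not divided by transcript length they are compared within a gene and never between genes. In every library the count was at least 5312 for Serinc5, 2911 for Rapgef2 and 1341 for Acvr1b. The summed level of 14 OL maturation markers was 18083 to 37489 CPM in the OL libraries and 1787 to 1920 CPM in the OPC libraries, whereas 10 OPC markers summed to 3580 to 4484 CPM and 7011 to 9173 CPM, so both sums differed in the direction of the labelled stages. Of the 10 OPC markers, 7 were lower and 3 higher in miR-ctl OLs than in anti-miR-ctl OPCs. The higher ones were Gpr17, Vcan and Sox10 (log2 fold changes 3.74, 0.55 and 0.54). Neither culture was pure. The 15 microglia markers summed to 538 to 1287 CPM in OLs and 1106 to 1661 CPM in OPCs, and the 10 astrocyte markers to 5925 to 14566 CPM in OLs and 476 to 805 CPM in OPCs. The 7 fibroblast, mural and endothelial markers summed to at most 66.7 CPM. In these bulk libraries fewer cells of a type and less RNA per cell cannot be told apart.

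**Figure D1:**
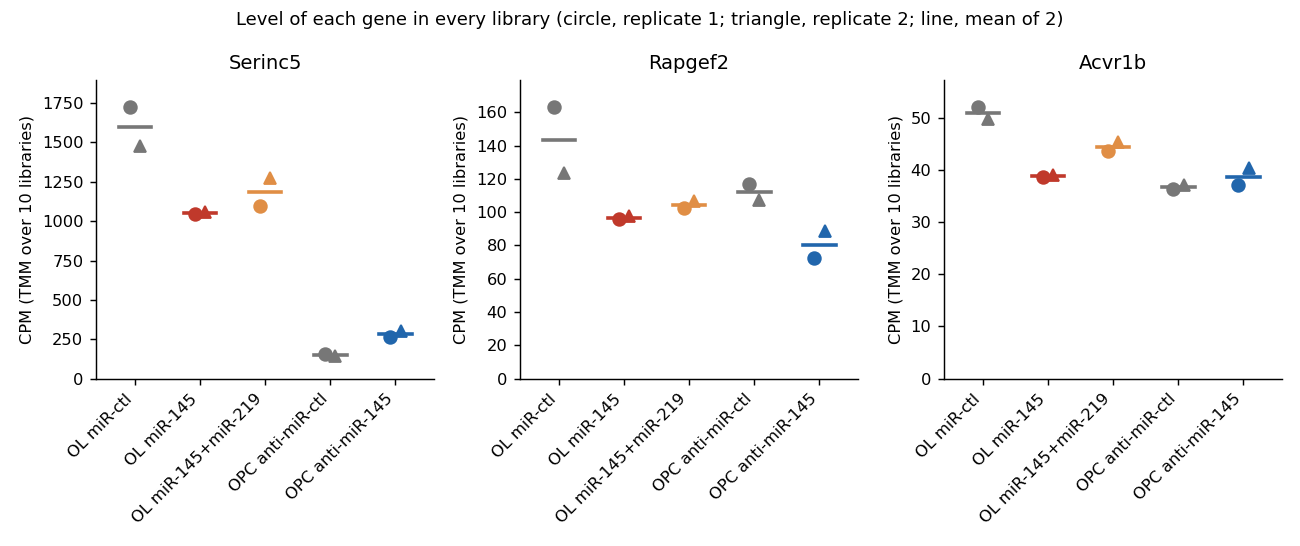
Level of Serinc5, Rapgef2 and Acvr1b in each of the 10 libraries, in CPM on linear axes that start at 0; circles are replicate 1, triangles replicate 2 and lines the mean of 2. Serinc5 was at 1475 to 1725 CPM in control OLs and at most 305 CPM in OPCs, and within OPCs both anti-miR-145 libraries lay above both controls.

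The level of Serinc5 (ENSRNOG00000024039) was 1725 and 1475 CPM in miR-ctl OLs. It was 1045 and 1058 CPM in miR-145 OLs, and 1095 and 1272 CPM in miR-145+miR-219 OLs. In OPCs it was 155 and 146 CPM with anti-miR-ctl and 262 and 305 CPM with anti-miR-145. All 4 libraries with a mimic lay below both miR-ctl libraries, and the groups did not overlap in OPCs either, where the inhibitor libraries were the high ones. From the highest, the means were 1600 ± 177 CPM (SD, n = 2) in miR-ctl OLs, 1183 ± 125 CPM (SD, n = 2) in miR-145+miR-219 OLs, 1051 ± 9.12 CPM (SD, n = 2) in miR-145 OLs, 283 ± 30.8 CPM (SD, n = 2) in anti-miR-145 OPCs and 150.4 ± 6.78 CPM (SD, n = 2) in anti-miR-ctl OPCs. Of neighbours in that order, only the 2 mimic groups differed by less than the sum of their SDs.

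The level of Rapgef2 (ENSRNOG00000021581) was 163 and 123 CPM in miR-ctl OLs. It was 96.0 and 97.5 CPM in miR-145 OLs, and 102 and 107 CPM in miR-145+miR-219 OLs. In OPCs it was 117 and 107 CPM with anti-miR-ctl and 72.3 and 88.6 CPM with anti-miR-145. The mimic libraries again lay below both controls, and so did the inhibitor libraries, which held the lowest levels of all. The order of the means was miR-ctl OLs (143 ± 28.2 CPM, SD, n = 2), anti-miR-ctl OPCs (112 ± 6.64 CPM), miR-145+miR-219 OLs (105 ± 2.91 CPM), miR-145 OLs (96.7 ± 1.05 CPM) and anti-miR-145 OPCs (80.4 ± 11.5 CPM). Among the first 3 of these groups, neighbours differed by less than the sum of their SDs.

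The level of Acvr1b (ENSRNOG00000006934) was 52.1 and 49.7 CPM in miR-ctl OLs. It was 38.7 and 39.0 CPM in miR-145 OLs, and 43.6 and 45.3 CPM in miR-145+miR-219 OLs. In OPCs it was 36.4 and 37.1 CPM with anti-miR-ctl and 37.0 and 40.3 CPM with anti-miR-145. Control OLs were the highest libraries, the 2 OPC groups overlapped, and the miR-145 OLs lay within the range of the anti-miR-145 OPCs. The means were 50.9 ± 1.66 CPM (SD, n = 2) in miR-ctl OLs, 44.4 ± 1.20 CPM in miR-145+miR-219 OLs, 38.8 ± 0.22 CPM in miR-145 OLs, 38.7 ± 2.35 CPM in anti-miR-145 OPCs and 36.7 ± 0.52 CPM in anti-miR-ctl OPCs. The last 3 did not differ beyond their spread in neighbouring pairs, and with plain library totals in place of TMM the miR-145 OLs were the lowest of them, at 37.5 CPM against 39.3 CPM in anti-miR-ctl OPCs.

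With the miR-145 mimic in OLs, all 3 mRNAs lay below the control by 23.4% to 34.0% of their level. The log2 fold change was -0.60 (standard error 0.14) for Serinc5, -0.56 (standard error 0.16) for Rapgef2 and -0.38 (standard error 0.11) for Acvr1b. Their p-values by the quasi-likelihood test of edgeR, adjusted after Benjamini and Hochberg over 15461 genes, were 0.199, 0.243 and 0.236, so 0 of the 3 were called at an adjusted p under 0.05, where the background was 0% of all genes tested. At an unadjusted p under 0.05 there were 3 of the 3, against 13.4% (2067) of all genes. DESeq2 on the same libraries called 1 of the 3, Serinc5 (adjusted p = 0.00611), and 4.2% (649) of all genes. Both miR-145 libraries lay below both controls for 24.4% of all genes. These values chose the genes and nothing is read from them. With a library left out, Rapgef2 ranged from -0.76 to -0.34, the latter without replicate 1 of miR-ctl. In the same comparison edgeR called none of the markers, where DESeq2 called 5 astrocyte and 1 microglia markers higher and 2 OPC markers lower. All 10 astrocyte markers were positive (median 0.87), as were 14 of 15 microglia markers (median 0.61), while 7 of 10 OPC markers (median -0.38) and 9 of 14 OL maturation markers (median -0.24) were negative. Their part in the lower levels of the 3 mRNAs was not tested.

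**Figure D2:**
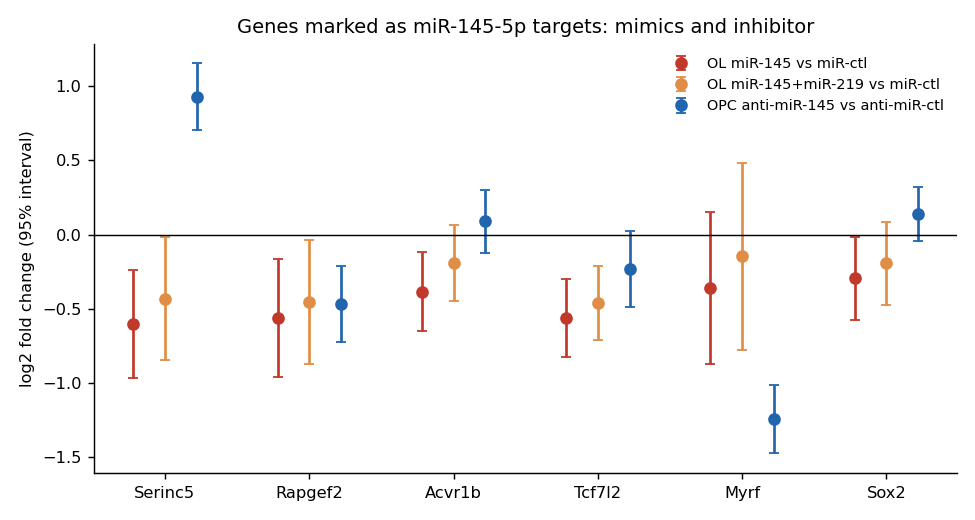
Log2 fold change with its 95% interval (edgeR) for the 6 genes the study marks as miR-145-5p targets, with 2 libraries a group. All 6 estimates lie below 0 with the miR-145 mimic, although the interval of Myrf includes 0. Under the inhibitor Serinc5 is at 0.93, Rapgef2 at -0.46, Acvr1b at 0.09 and Myrf at -1.24.

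With the inhibitor in OPCs, the 3 mRNAs went 3 ways. Serinc5 rose 1.90-fold relative to anti-miR-ctl, Rapgef2 fell to 0.72 of its control level, and Acvr1b had a fold change of 1.06 that did not pass the test. This comparison shares no library with the one that chose the genes.

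For Serinc5 the log2 fold change was 0.93 (standard error 0.10, 95% interval 0.70 to 1.15), with an adjusted p of 0.000572 in edgeR. It was higher in 2 of 2 libraries. Of 15496 genes tested, 12.1% were called higher and 16% were called lower, 28.1% in all, and both inhibitor libraries lay above both controls for 32.8%. In rank of p Serinc5 stood at 717 of 15496 and its log2 fold change was above that of 96.0% of genes. The call was made with each library left out, with log2 fold changes from 0.83 to 1.02.

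For Rapgef2 the log2 fold change was -0.46 (standard error 0.11, 95% interval -0.72 to -0.21), with an adjusted p of 0.0195. This is the direction it had with the mimic, not the opposite one. Both inhibitor libraries lay below both controls, as for 35.1% of all genes. Without replicate 1 of anti-miR-ctl the log2 fold change was -0.43 with an adjusted p of 0.110, and in a fit over all 5 groups it was -0.45 with an adjusted p of 0.0692, so the call depended on these choices and the direction did not.

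For Acvr1b the log2 fold change was 0.09 (standard error 0.09, 95% interval -0.12 to 0.30) and an adjusted p of 0.493. A change was not detectable with 2 libraries a group, and the interval holds fold changes from 0.92 to 1.23. Thus 2 of the 3 genes were called, 1 higher and 1 lower.

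Other measures are given beside these changes. Over all genes tested, 12.1% were called higher with the inhibitor and 16% were called lower. All 11 genes of an interferon response list fell, with a median log2 fold change of -3.20, and their summed level was 1749 to 1860 CPM with anti-miR-ctl and 219 to 257 CPM with anti-miR-145. The microglia markers summed to 1543 to 1661 CPM with anti-miR-ctl and 1106 to 1418 CPM with anti-miR-145, with 8 of 15 called higher and 6 called lower. Among the defining ones, Aif1 fell by 1.40 and Csf1r by 0.41 on the log2 scale while Cx3cr1 rose by 1.83. The OPC markers summed to 7011 to 7288 CPM and 8002 to 9173 CPM, and of the defining ones Pdgfra, the PDGF receptor of OPCs, rose (log2 fold change 0.61) and Cspg4 fell (-0.56). The astrocyte markers summed to 773 to 805 CPM and 476 to 521 CPM, although Gfap rose by 2.53 on the log2 scale, from 8.23 and 7.81 CPM to 40.7 and 51.1 CPM, and Aqp4 was at most 0.91 CPM in OPCs. The OL maturation markers summed to 1806 to 1920 CPM with anti-miR-ctl and 1787 to 1802 CPM with anti-miR-145. Of these 14, 2 were called higher, Cldn11 (1.15) and Mag (0.38), and 1 lower, Mobp (-1.16), near the shares over all genes. The defining Mbp and Mog did not pass the test. The neuron markers summed to 666 to 705 CPM and 711 to 839 CPM, with 5 of 9 called higher, among them the defining Rbfox3 (0.88) and not Syt1 (-0.29). The fibroblast, mural and endothelial markers summed to 12.1 to 12.6 CPM and 3.31 to 4.72 CPM, and of its defining genes Dcn was at most 0.15 CPM in OPCs and Col1a1 (0.76) did not pass the test. The part of any of these in the changes of Serinc5 and Rapgef2 was not tested.

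The difference between the mimic effect in OLs and the inhibitor effect in OPCs was then tested in 1 edgeR fit over 8 libraries. Stage, time after transfection and oligonucleotide differ together between its arms and cannot be told apart, and its mimic arm had been used to choose the genes. For Serinc5 the mimic effect minus the inhibitor effect was -1.51 on the log2 scale (standard error 0.17, 95% interval -1.90 to -1.13), with an adjusted p of 0.00347 over 16217 genes. For Acvr1b it was -0.46 (standard error 0.13, 95% interval -0.75 to -0.17), with an adjusted p of 0.0598, just outside the threshold. For Rapgef2 it was -0.08 (95% interval -0.58 to 0.42), with an adjusted p of 0.851. The test thus called 1 of the 3 genes, against a background of 10.3% of all genes, 2.98% with a negative difference and 7.29% with a positive one. DESeq2, which called 16% of all genes, called Acvr1b as well (adjusted p = 0.0243), as did edgeR over all 5 groups (adjusted p = 0.0403), both with a difference of about the same size.

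The sign pattern of Serinc5 is not rare in these data. Of 14852 genes tested in both comparisons, 4119 (27.7%) had a negative log2 fold change with the mimic and a positive one with the inhibitor. Among the 7746 genes with a negative value under the mimic, 11.7% were called higher with the inhibitor and 11.8% were called lower. Among those with a positive value under the mimic, 13.2% were called higher with the inhibitor.

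**Figure D3:**
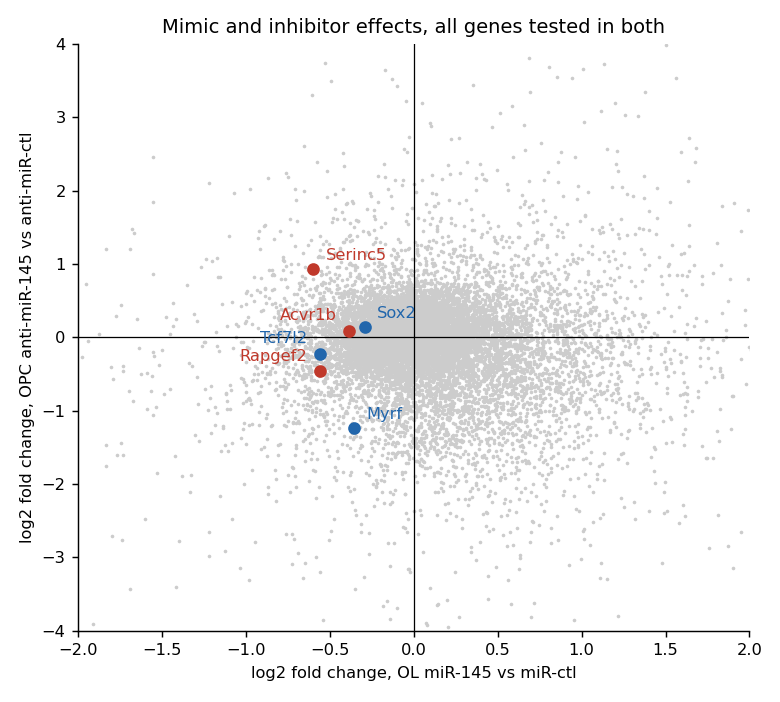
Log2 fold change with the mimic in OLs (x) against that with the inhibitor in OPCs (y) for the 14852 genes tested in both (grey; 119 lie outside the axes), with Serinc5, Rapgef2 and Acvr1b in red and Tcf7l2, Myrf and Sox2 in blue. Only Serinc5 among the 6 marked genes lies well into the upper left, at -0.60 and 0.93, while Rapgef2, Tcf7l2 and Myrf lie at the lower left.

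With both mimics the mean levels of the 3 mRNAs lay between those of miR-145 and control OLs. Relative to miR-ctl, which is the control of the mimic comparison too, the log2 fold changes in miR-145+miR-219 OLs were -0.43 (standard error 0.16) for Serinc5, -0.45 (standard error 0.16) for Rapgef2 and -0.19 (standard error 0.10) for Acvr1b. The adjusted p-values were 0.801, 0.801 and 0.815. Both libraries lay below both controls for each of the 3, as for 19.4% of all genes. With a library left out, Rapgef2 ranged from -0.64 to -0.23, the latter without replicate 1 of miR-ctl. The test called 0 of the 3 and 0% of 15436 genes, while DESeq2 called 106 genes (0.687%) and none of the 3. The unadjusted p was under 0.05 for 956 genes (6.19%), Serinc5 and Rapgef2 among them.

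Relative to miR-145 alone, miR-145+miR-219 OLs had log2 fold changes of 0.16 (95% interval -0.19 to 0.51) for Serinc5, 0.10 (95% interval -0.15 to 0.35) for Rapgef2 and 0.18 (95% interval -0.07 to 0.44) for Acvr1b. In each case both libraries with 2 mimics lay above both with 1, as for 13.6% of all genes. All 14 OL maturation markers had positive log2 fold changes in this comparison (median 0.35), and all 15 microglia markers (median -0.48) and 10 astrocyte markers (median -0.31) had negative ones; their part was not tested. No difference was detectable for any of the 3, each with an adjusted p of 1.000, and edgeR called 0% of 15501 genes, with 228 (1.47%) at an unadjusted p under 0.05, and DESeq2 called 9 (0.0581%).

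Between the control cells of the 2 stages, Serinc5 differed most. It was 10.6-fold higher in miR-ctl OLs than in anti-miR-ctl OPCs (log2 fold change 3.41, standard error 0.12, adjusted p = 5.17e-05 by edgeR), a larger value than for 96.8% of genes. Acvr1b was 1.38-fold higher in OLs (log2 fold change 0.47, standard error 0.08, adjusted p = 0.00585). Rapgef2 had a log2 fold change of 0.35 (95% interval -0.02 to 0.72) with an adjusted p of 0.0925, and its 2 miR-ctl libraries were 40 CPM apart. In this comparison 57.5% of 15721 genes were called, and 28.8% were called higher in OLs. The call for Acvr1b was not made without either anti-miR-ctl library (adjusted p = 0.0848 and 0.0699), and Rapgef2 was called without replicate 2 of miR-ctl (log2 fold change 0.54). The scrambled mimic and the scrambled inhibitor differ as well as the stage and the time, and cannot be told apart from it.

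Serinc5 and Acvr1b followed each other more closely over the libraries than either followed Rapgef2. On log2(CPM + 1), Pearson's r over the 10 libraries was 0.78 for Serinc5 with Acvr1b, 0.69 for Rapgef2 with Acvr1b and 0.41 for Serinc5 with Rapgef2. After each library was centred on the mean of its stage the values were 0.70, 0.61 and 0.01. These libraries share treatments and controls, and the values are descriptions.

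The genes most like each of the 3 were looked for among 12034 genes with a symbol and a mean of at least 1 CPM. For Serinc5 they were Spata2 (r = 0.996), Snx18 (0.995), which encodes a sorting nexin, and Mxd1 (0.995), a partner of Max. Snx18 and Mxd1 were called higher with the inhibitor too (log2 fold changes 0.47 and 0.43), whereas Spata2 had 0.29 with an adjusted p of 0.0579. The libraries used to pick these genes include those of the inhibitor comparison, so these values are not independent of the choice. After centring within stage the leaders were Ercc6 (0.993), a DNA repair factor, Jarid2 (0.978), a partner of Polycomb complexes, and Pik3c3 (0.978), a phosphatidylinositol kinase. By rank correlation Rapgef1, Klhl24 and Sik2 followed the order of Serinc5 in all 10 libraries.

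For Rapgef2 the likest genes were Atp8a2 (0.974), a phospholipid flippase, Ddx17 (0.968), an RNA helicase, and Zfp280c (0.960). Centred within stage they were Abca8a (0.975), Zfp280c (0.974) and Atp8a2 (0.973). Of these 4 genes, Abca8a was called lower with the inhibitor (log2 fold change -0.77), which is likewise not independent of the choice. For Acvr1b they were Exd2 (0.958), Rab14 (0.952), a Rab GTPase, and Nkd2 (0.946), an inhibitor of Wnt signalling. Centred within stage they were Isg20l2, Wtap and Sf3b3 (0.966, 0.965 and 0.964), the latter 2 of which act in RNA methylation and splicing. The genes found by this measure changed with the scale, and with 10 libraries of 5 kinds many genes reach such values.

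The study marks 3 more genes as targets and cites earlier work for them. They were chosen from the same OL libraries too, and they serve as a comparison. Tcf7l2, a Wnt effector that acts in OL differentiation, was at 68.5 and 66.0 CPM in miR-ctl OLs and 46.6 and 44.1 CPM in miR-145 OLs, and in OPCs at 16.5 and 15.5 CPM with anti-miR-ctl and 12.6 and 14.4 CPM with anti-miR-145. Its log2 fold change with the inhibitor was -0.23 (adjusted p = 0.158). Myrf, the transcription factor that myelin genes need, was at 87.8 and 75.2 CPM with anti-miR-ctl and 33.6 and 34.6 CPM with anti-miR-145. It thus fell with the inhibitor (log2 fold change -1.24, standard error 0.10, adjusted p = 0.000203), having -0.36 with the mimic. Sox2, a progenitor transcription factor, was at 255 and 244 CPM and at 272 and 273 CPM, a log2 fold change of 0.14 (adjusted p = 0.217). Of all 6 genes, Serinc5 was called higher with the inhibitor, and Rapgef2 and Myrf were called lower. The shares over all genes tested were 12.1% and 16%. The stage comparison called 5 of the 6 higher in OLs, all but Rapgef2, and 28.8% of all genes tested.

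Of the other Serinc genes, Serinc3 moved with Serinc5. Serinc3 was at 198 and 206 CPM with anti-miR-ctl and 287 and 296 CPM with anti-miR-145, and it rose (log2 fold change 0.55, standard error 0.08, adjusted p = 0.00276). Serinc1 (0.12), Serinc2 (-0.00, at most 0.93 CPM in any library) and Serinc4 (0.15) did not pass the test. With the mimic Serinc1 to Serinc4 had log2 fold changes from -0.06 to 0.14. Serinc5 had -0.60, but it was picked among genes lower in that comparison, so nothing is read from the contrast. Serinc1, Serinc3 and Serinc4 were called higher in control OLs than in control OPCs, with log2 fold changes of 0.64, 1.85 and 1.50. Of all genes tested for stage, 28.8% were called higher.

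Of 25 tested genes of serine and serine-derived lipid synthesis, 5 rose and 5 fell with the inhibitor, where 12.1% of all genes were called higher and 16% lower, with a median log2 fold change of -0.14 beside 0.00 over all genes. The higher ones included Shmt2 (0.59), the mitochondrial serine hydroxymethyltransferase, Kdsr (0.47), which reduces ketosphinganine, and the phosphatidylserine synthase Ptdss2 (0.33); Ptdss1 and the ceramide synthase Cers1 were also called. The lower ones included the cytosolic Shmt1 (-0.72), the glucosylceramide synthase Ugcg (-0.51) and the sphingomyelin synthase Sgms2 (-2.03), with Cers6 and Degs1. The enzymes that start serine synthesis, Phgdh and Psat1, had -0.24 and -0.22 and did not pass the test.

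**Figure D4:**
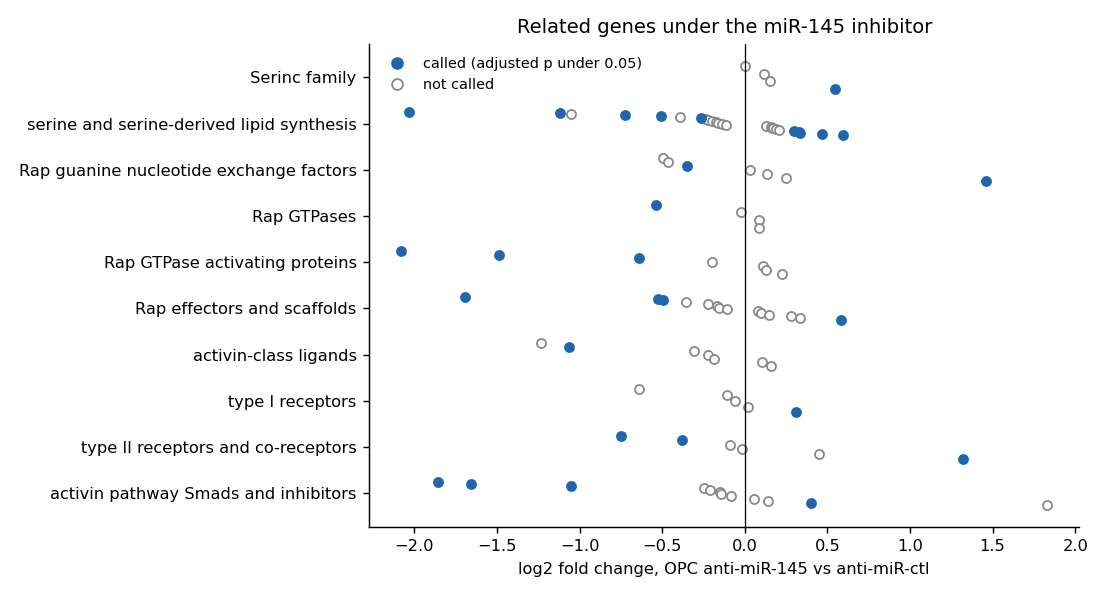
Log2 fold change with the inhibitor in OPCs for the tested genes of each related list, filled where the adjusted p was under 0.05 and open where not; vertical offsets within a list only separate the points. Each list of more than 4 genes except the type I receptors holds called genes below 0, and Rasgrp3 (1.46) and Tgfbr3 (1.32) are the highest called ones.

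Of 7 other exchange factors for Rap tested, 1 rose and 1 fell, against 12.1% and 16% of all genes, with a median log2 fold change of 0.03. Rasgrp3, an exchange factor for Ras and Rap, went from 2.48 and 2.11 CPM to 6.40 and 6.11 CPM (log2 fold change 1.46, adjusted p = 0.000967). Rapgef5 went from 76.7 and 69.8 CPM to 56.0 and 57.6 CPM (-0.35, adjusted p = 0.0216). Rapgef6, the closest relative of Rapgef2, had a log2 fold change of 0.03 with the inhibitor and 0.22 with the mimic, and Rapgef1, which the study drew among its lower genes, had 0.25 and -0.46.

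Among 4 Rap GTPases, Rap1b fell with the inhibitor (log2 fold change -0.54, adjusted p = 0.00298) and Rap1a, Rap2b and Rap2c did not pass the test (-0.02, 0.09 and 0.08). Of 7 GTPase activating proteins, which switch Rap off, 3 fell and 0 rose by edgeR, and DESeq2 called 2 lower; over all genes edgeR called 16% lower and 12.1% higher. These were Rap1gap2 (-2.08), Sipa1l1 (-0.64) and Garnl3 (-1.49, at most 1.19 CPM in OPCs). Of 14 effectors and scaffolds, Tnik, a kinase, rose (0.58), and 3 fell: Apbb1ip (-1.69), also called RIAM, which links Rap1 to integrins, the junction scaffold Afdn (-0.49) and Rassf5 (-0.53), which is close to the shares over all genes. The medians of these 3 lists were 0.03, -0.20 and -0.13. Apbb1ip, at 71.5 and 62.4 CPM with anti-miR-ctl and 22.7 and 18.2 CPM with anti-miR-145, is also expressed in microglia, whose markers moved as described above.

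Around Acvr1b, some single genes were called with the inhibitor while the receptor's own mRNA had no detectable change. Their counts are to be read against all genes, of which 12.1% were called higher and 16% lower. Of 7 tested ligands, a list that holds TGF-betas as well as activin-class genes, 1 fell. This was Tgfb1, a TGF-beta and not an activin, from 56.2 and 48.6 CPM to 29.3 and 20.3 CPM (log2 fold change -1.06, adjusted p = 0.00531). The activin subunits Inhba and Inhbb had -1.23 and -0.22 and did not pass the test. Of 5 other type I receptors Tgfbr1 rose (0.31, adjusted p = 0.0432), and Acvr1 (-0.06), Acvrl1 (-0.64), Bmpr1a (-0.11) and Bmpr1b (0.02) did not pass the test; Acvr1c was at or near 0 in all libraries and was not tested.

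The type II receptors that pair with Acvr1b, Acvr2a and Acvr2b, had log2 fold changes of -0.02 and 0.45 and did not pass the test. Of 6 type II receptors and co-receptors, the co-receptor Tgfbr3 rose (1.32, from 12.1 and 11.4 CPM to 24.9 and 33.3 CPM), and Tgfbr2 (-0.38) and the co-receptor Eng (-0.75) fell. Of 12 Smads, inhibitors and ubiquitin ligases of the pathway, the ligase Smurf1 rose (0.40), and the activin antagonist Fst (-1.86, at most 1.34 CPM), the pseudoreceptor Bambi (-1.05) and the Smad corepressor Skil (-1.66) fell. The Smad counts, 1 higher and 3 lower of 12, and those of the type II list are to be read against 12.1% and 16% of all genes. Smad2, Smad3 and Smad4, through which Acvr1b signals, had -0.25, -0.21 and 0.14 and did not pass the test. The medians of the ligand, type I, type II and Smad lists were -0.22, -0.06, -0.06 and -0.14.

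In the stage comparison 57.5% of all genes were called, 28.8% higher and 28.7% lower in control OLs. Of the Rap exchange factors 5 of 7 were called, 3 higher and 2 lower in control OLs. The higher ones were Rasgrp3 (log2 fold change 2.51), Rapgef1 (1.88) and Rapgef5 (1.75), and the lower ones were Rapgef6 (-1.08) and Rasgrp2 (-0.88). Of the type I receptors other than Acvr1b, 3 of 5 were higher in OLs, Bmpr1b, Bmpr1a and Tgfbr1 (5.31, 1.20 and 0.99), and Acvrl1 was lower (-1.19). Of the 12 Smads and inhibitors 6 were higher and 4 lower. Within this set the difference of Acvr1b, 0.47, was smaller than that of each of the 3 receptors that were higher.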

How the data were processed

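The authors assigned TruSeq Stranded mRNA reads to rat GENCODE transcripts (Rnor6.0) with Salmon 0.12.0 and deposited expected counts per gene through tximport, not normalized. Of each library's values, 16.0% to 17.5% were not whole, and they were rounded here. The authors' DESeq2 table of 1 comparison was used only for gene symbols (14561 of 16129 genes); its fold changes and p-values were not used, and the 266 symbols on more than 1 gene were left out of the lists.

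Each comparison was fitted on its own libraries (4, or 8 for the difference of effects) with edgeR 4.0.16 (TMM, quasi-likelihood test, two-sided) in R 4.3.3, keeping genes that reached 5 counts in 2 libraries or more. A call means a p under 0.05 after Benjamini-Hochberg adjustment over all genes tested. Standard errors are the log2 fold change over the root of F. With 2 libraries against 2, an exact permutation test cannot give a p below 0.333. On simulated counts with 200 changed genes edgeR called 154 of them in the mimic comparison (27 false calls among 15269 genes), 194 in the inhibitor comparison (23 false) and 132 in the difference (10 false). DESeq2 called 166, 191 and 161 of them in the same order, with 44, 25 and 53 false calls, more than edgeR in each comparison. Every planted change was at least 2-fold, which is larger than the mimic and inhibitor effects on Serinc5, Rapgef2 and Acvr1b. These counts therefore give no recovery rate for effects as small as those.

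Alternatives were DESeq2 1.42.0, its size factors, other filters, a joint fit of all 5 groups, the replicate number as a block and leaving out each library. Named genes were the 3 genes, the 3 other marked targets, all Serinc and type I receptor genes, defining markers, and of each list up to 3 called genes a direction by p under the inhibitor; other genes of these lists were named for their role or to complete a count of 5 or fewer. Of the defining markers, Snap25 and Pecam1 had no single gene and were not analysed here, and 1 other is not reported here. Genes and lists were chosen with earlier results of these data known. Figures used Python 3.11.15 and matplotlib 3.10.9.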

Additional observations from a re-analysis of the deposited data

How the results depend on the processing

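The rise of Serinc5 with the inhibitor, its difference of effects and its stage difference kept their direction and call under every alternative run, with log2 fold changes of 0.83 to 1.02, -1.62 to -1.40 and 3.29 to 3.51. For the mimic, the call depended on the tool. The genes called numbered 0 in edgeR, 649 with DESeq2, 79 with all 5 groups in a fit, 1128 with DESeq2 on all 10 libraries and 2272 with the replicate block. Serinc5 was called by both DESeq2 fits and the block (each -0.60), and Rapgef2 and Acvr1b by DESeq2 on 10 libraries (-0.56 and -0.38) and by the block (-0.55 and -0.38). The labels do not say that replicate numbers mark shared cultures; deviations of same-numbered libraries correlated at 0.42 (mimic), -0.17 (inhibitor), 0.49 (both mimics), 0.66 (added miR-219) and 0.08 (stage), so the block is only an alternative, and it changed no call of the 3 genes elsewhere. With both mimics 0 genes were called, against 106 (DESeq2), 1 (no filter), 201 (DESeq2, 10 libraries) and 132 (block); for the added miR-219, 0 against 9, 8 (DESeq2, 10 libraries) and 184 (block). With the inhibitor 4348 genes were called, 2655 with all 5 groups in a fit; in the difference of effects 1665, against 2593 and 2570 by DESeq2 on 8 and 10 libraries.

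Rapgef2 under the inhibitor was -0.45 and not called with all 5 groups, and from -0.60 to -0.34 with a library left out. Its difference of effects ran from -0.27 to 0.13 with a library left out, with a positive sign without replicate 1 of miR-ctl (0.13) or replicate 2 of anti-miR-145 (0.04). The difference for Acvr1b was called with DESeq2 (-0.46), all 5 groups (-0.49) and DESeq2 on 10 libraries (-0.46). With a library left out the stage values were 0.14 to 0.54 for Rapgef2 and 0.43 to 0.50 for Acvr1b. Genes called with a library left out ranged from 2433 to 7130 (inhibitor; 2433 and 2539 without replicate 1 and 2 of anti-miR-ctl, 7130 without replicate 2 of anti-miR-145), 5016 to 10591 (stage) and 390 to 1831 (difference). Myrf ranged from -0.52 to 0.15 with both mimics, positive without their replicate 1, and changed sign to -0.16 and -0.03 for the added miR-219 (without replicate 2 of miR-145+miR-219 or replicate 1 of miR-145). The cause of these shifts was not tested. Each group has 2 libraries, which limits the precision of every comparison.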

Other observations

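Serinc5 was 1 of 181 genes that shared 3 features, namely both miR-145 and both miR-145+miR-219 libraries below both miR-ctl libraries, called higher with the inhibitor, and called in the difference of effects. The 181 genes are 1.22% of the 14852 tested in both comparisons. The mirror pattern, with all mimic libraries above the controls and a call lower with the inhibitor, was met by 321 genes (2.16%). Of 2156 genes whose 4 mimic libraries all lay below the controls, 249 (11.5%) were called higher with the inhibitor and 240 (11.1%) were called lower, as Rapgef2 was. The mimic libraries that chose Serinc5 enter both this pattern and the difference, so its place here is a description and not independent evidence. By the p of the difference Serinc5 stood at rank 10 among the 181. Those before it, chosen after their values were seen, included Ptpn5, a tyrosine phosphatase (log2 fold changes -0.42 with the mimic and 2.02 with the inhibitor), Rgs2, a regulator of G protein signalling (-0.56 and 1.19), Tnk2, a tyrosine kinase (-0.21 and 0.98), and the growth factor Igf2 (-1.55 and 2.46).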
